A study of Mus musculus with 2 samples.

Results

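The mesenchymal transition regulators described here are 9 genes, Cdh2, Vim, Snai1, Snai2, Twist1, Twist2, Zeb1, Zeb2 and Prrx1, out of 18193 genes measured. They were chosen by name, and the members and the gene lists below were chosen with earlier results of these data known. The shares over all genes set beside their counts are therefore no test of them. Every probe set that the platform annotation assigns to exactly 1 gene with such a symbol was taken, which gave 25 probe sets. A probe set is a group of short probes on the array that reads a transcript. Expression was measured on 1 array for each of 2 lines of mouse embryonic stem cells of strain C57BL/6 at passage 15 to 18, 1 with the genotype MOF +/+ and 1 with MOF-/-, and the arrays are called wild type and Mof null after these labels. Mof, whose gene symbol is Kat8, is an acetyltransferase of histone H4. Both lines came from embryos at 3.5 days post coitum and were kept on mouse embryonic fibroblast (MEF) feeders with LIF, and feeders were left out for 2 passages before RNA was taken. The making of the Mof null allele is not described in the labels. With 1 line and 1 array per genotype a difference between genotypes cannot be told apart from a difference between lines or cultures.

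Epithelial-mesenchymal transition is the process in which epithelial cells lose their cell-cell junctions and become motile mesenchymal cells, as they do at gastrulation and in the neural crest. The zinc finger proteins Snai1, Snai2, Zeb1 and Zeb2 repress epithelial genes such as that of E-cadherin (Cdh1) by binding E-boxes, short DNA elements, and the basic helix-loop-helix proteins Twist1 and Twist2 and the homeodomain protein Prrx1 also drive the mesenchymal program. N-cadherin (Cdh2) and vimentin (Vim) are the adhesion molecule and the intermediate filament protein by which mesenchymal cells are recognised. Embryonic stem cells carry E-cadherin and are epithelial in character, while fibroblasts are mesenchymal and express most of these 9 genes.

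All 9 genes had a lower value on the Mof null array, and 8 of them were lower by 2-fold or more, the exception being Zeb1. Of 12015 expressed genes, 11.9% were lower by 2-fold or more and 5.09% higher by 2-fold or more, and none of the 9 was 2-fold higher. Of all genes past 2-fold, 29.95% were higher, and 2.18% relative to the median of the stem cell markers. Here a gene is read by its brightest probe set, and it counts as expressed when the higher of its 2 values reaches 6.02, the median of all values. All 9 genes were above that level on both arrays. At 4-fold, 6 of the 9 were lower, against 3.24% of the expressed genes. The 9 genes had a median difference of -2.27 log2 units, with an SD of 0.63 among the 9, while that over all expressed genes was 0.10. The marker lists of fibroblasts and macrophages described further on had medians of -1.99 and -2.05, and their part in the values of the 9 genes was not tested. There was 1 array per genotype, so no value below has a replicate error and no test was run. As the available yardstick, probe sets of the same gene had differences with a pooled SD of 0.33 log2 units over 5362 genes, and 0.51 over the 6 of these 9 genes that have several such probe sets.

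Most single probe sets showed the same, and the exceptions were mainly those of the Zeb genes. Of the 25 probe sets, 19 were lower by 2-fold or more on the Mof null array and none was 2-fold higher, against 7.15% of all 34945 probe sets that name 1 gene. The 6 probe sets under 2-fold were the 4 of Zeb1, 1 of the 5 of Zeb2 and 1 of the 6 of Prrx1. There were 22 probe sets above the level filter. Of these, 4 passed it on the wild-type array alone, so that their lower value on the other array is partly built into the filter, and none passed it on the Mof null array alone.

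**Figure D1:**
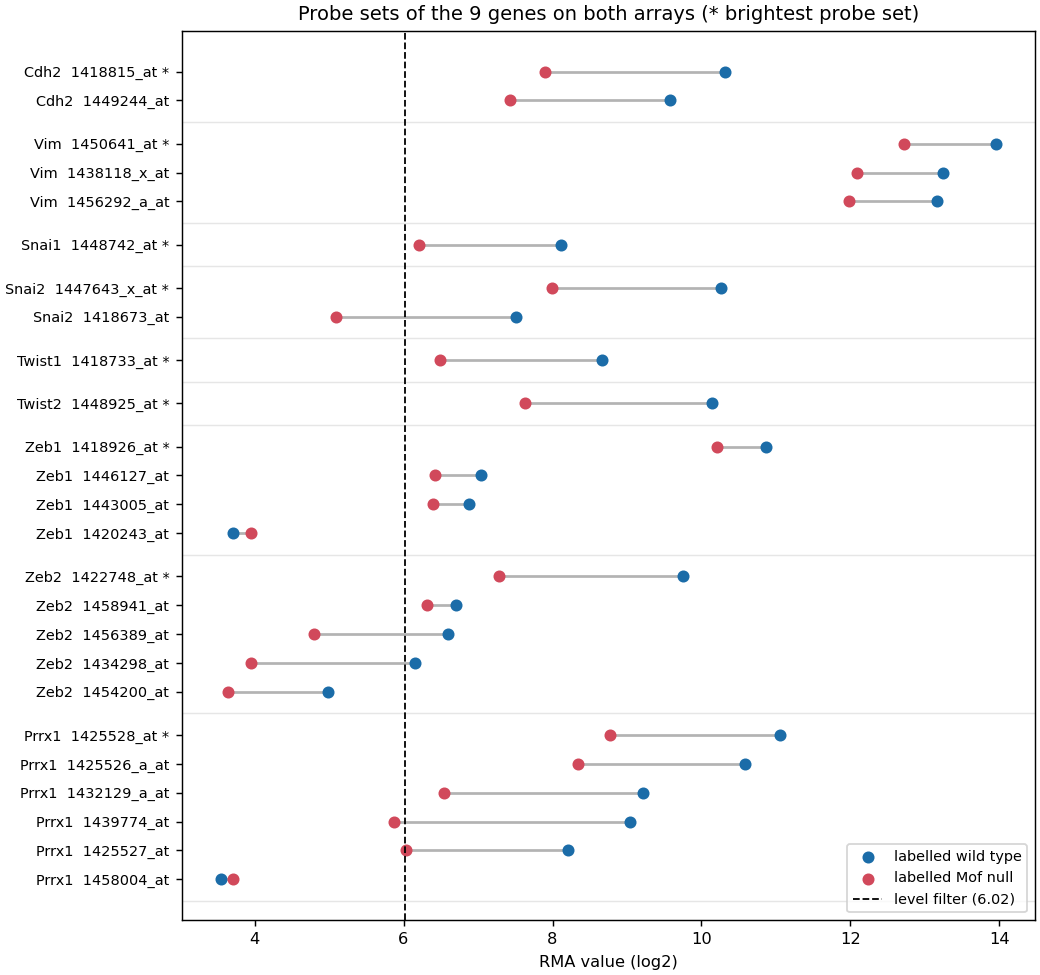
RMA values on a log2 scale of the 25 probe sets of the 9 genes, with blue points for the wild-type array, red points for the Mof null array and a dashed line at the level filter of 6.02. In 23 of the 25 probe sets the red point lies to the left of the blue one, and among brightest probe sets (marked with an asterisk) the gap of Zeb1, 0.67, is the narrowest.

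The structural genes of the mesenchymal state differed in size. Cdh2 (Entrez gene 12558), the N-cadherin gene, had a value of 10.3 on the wild-type array and 7.89 on the Mof null array on its brightest probe set, a 5.33-fold lower level. Its second probe set read 9.57 and 7.42, a 4.44-fold lower level, so both probe sets place Cdh2 past 4-fold. Of the expressed genes, 1.30% had a difference further below 0 than Cdh2. Vim (Entrez gene 22352), the vimentin gene, read 13.95 and 12.7, a 2.36-fold lower level. Its other 2 probe sets were lower by 2.21-fold and 2.28-fold. The 3 Vim probe sets lay close together, between -1.24 and -1.15 log2 units. Among the 165 expressed genes within 0.5 log2 units of the mean level of Vim, 4.85% were lower by 2-fold or more, and 2.42% lay further below 0 than Vim itself.

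The Snail genes were both lower. Snai1 (Entrez gene 20613), which encodes the repressor that is switched on early at gastrulation, was read by 1 probe set at 8.11 on the wild-type array and 6.20 on the Mof null array, a 3.76-fold lower level. Its value on the Mof null array was just above the level filter of 6.02. Snai2 (Entrez gene 20583), the neural crest and mesenchyme member known as Slug, read 10.3 and 8.0 on its brightest probe set, a 4.81-fold lower level, and 7.52 and 5.09 on its other one, a 5.35-fold lower level. The brightest Snai2 probe set is of a type that can also bind other transcripts (suffix _x_at). Both Snai2 probe sets differed by a like amount, -2.27 and -2.42 log2 units, and without probe sets of that type the difference of Snai2 was -2.42. The probe set with -2.42 passed the level filter on the wild-type array alone. Snai3, the remaining member of the family, read 7.11 and 7.24, a difference of 0.13 that lay within the spread between probe sets.

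The Twist genes were each read by 1 probe set. Twist1 (Entrez gene 22160), needed in cranial mesenchyme and neural crest, had 8.66 on the wild-type array and 6.50 on the Mof null array, a 4.48-fold lower level. Twist2 (Entrez gene 13345), known as Dermo1 and expressed in dermal and bone-forming mesenchyme, had 10.1 and 7.62, a 5.70-fold lower level. This was the difference furthest below 0 of the 9 genes on brightest probe sets, with 0.99% of expressed genes further below 0. The differences of Snai1 and Snai2 lay 0.36 log2 units apart and those of Twist1 and Twist2 0.35 apart, each about the size of the SD between probe sets.

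The Zeb genes differed from each other on their brightest probe sets. Zeb1 (Entrez gene 21417) read 10.9 on the wild-type array and 10.2 on the Mof null array, a 1.59-fold lower level, and 17.5% of the expressed genes lay further below 0. Its other 2 probe sets above the level filter were lower by 1.52-fold and 1.40-fold. The last Zeb1 probe set, with 3.71 and 3.96, was below the filter on both arrays and differed by 0.25. Zeb2 (Entrez gene 24136), the paralog known as Sip1, read 9.75 and 7.28 on its brightest probe set, a 5.54-fold lower level, with 1.08% of the expressed genes further below 0. On these brightest probe sets the difference of Zeb1 lay 1.80 log2 units above that of Zeb2, which is 3.49-fold. That gap is larger than the pooled SD between probe sets of the same gene, 0.33 over all genes and 0.51 over the members with several. This SD is a spread within a gene and not an error between arrays or cultures. The Zeb2 probe sets did not all show the difference of the brightest one, and those above the filter ranged from -2.47 to -0.39 log2 units. Those at 6.59 and 4.80, at 6.15 and 3.95 and at 4.99 and 3.64 were lower by 3.46-fold, 4.59-fold and 2.55-fold. Those at 6.59 and 6.15 on the wild-type array passed the filter there alone, and that at 4.99 was below it on both arrays. The Zeb2 probe set at 6.71 and 6.32, above the filter on both arrays, was lower by 1.31-fold. This was a smaller difference than those of the 3 Zeb1 probe sets above the filter. With all probe sets of each gene averaged, the difference was -1.64 for Zeb2 and -0.38 for Zeb1.

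Prrx1 (Entrez gene 18933), a homeobox gene of limb and craniofacial mesenchyme, had the most probe sets. The brightest read 11.05 on the wild-type array and 8.77 on the Mof null array, a 4.85-fold lower level. The 5 probe sets above the level filter were lower by 4.52-fold to 8.96-fold. The widest gap, from 9.04 to 5.87, was that of a probe set that passed the filter on the wild-type array alone. The remaining probe set, at 3.55 and 3.71, was below the filter on both arrays. Its paralog Prrx2 read 8.31 and 6.65, a 3.15-fold lower level, so both Prrx genes were past 2-fold.

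**Figure D2:**
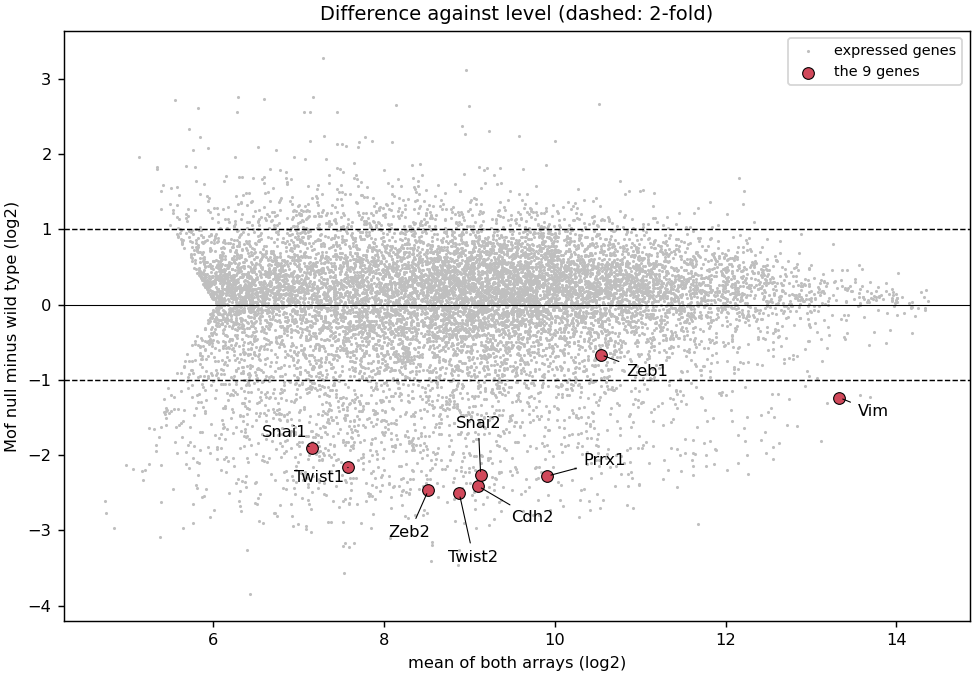
Difference between the arrays (Mof null minus wild type, log2) against the mean log2 value of both arrays for the 12015 expressed genes in grey and the 9 genes in red, with dashed lines at 2-fold. The red points other than Zeb1 lie below the lower dashed line, from -2.51 for Twist2 to -1.24 for Vim, and Zeb1 lies above it at -0.67.

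The promoters of these genes were read for the DNA elements that their own products and general factors bind. RefSeq windows from 250 bases before to 50 bases after a transcription start on GRCm38.p6 were taken for 6 of the 9 genes, Snai1, Twist1, Twist2, Vim, Zeb2 and Prrx1. They were searched on both strands for the E-box CANNTG and for its form CAGGTG, which Snail and Zeb proteins bind and which overlaps the general form by definition. On the opposite strand that form reads CACCTG. The search was extended, after the sequences had been seen, to the core promoter motif TATAAA and, as a separate element, to CCAAT. The windows of 4 genes are printed because they hold the E-box, both TATAAA matches and the Twist pair, with all matches in capitals. They are chr2:167537945-167538244 (plus strand) for Snai1, chr12:33957421-33957720 (plus strand) for Twist1, chr1:91801211-91801510 (plus strand) for Twist2 and chr2:13574061-13574360 (plus strand) for Vim.
Snai1: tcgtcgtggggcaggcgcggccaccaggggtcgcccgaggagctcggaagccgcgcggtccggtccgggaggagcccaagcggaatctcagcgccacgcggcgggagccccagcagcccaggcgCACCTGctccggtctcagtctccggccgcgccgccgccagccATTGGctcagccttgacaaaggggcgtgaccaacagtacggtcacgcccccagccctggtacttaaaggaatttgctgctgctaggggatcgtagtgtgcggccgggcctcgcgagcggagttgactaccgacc
Twist1: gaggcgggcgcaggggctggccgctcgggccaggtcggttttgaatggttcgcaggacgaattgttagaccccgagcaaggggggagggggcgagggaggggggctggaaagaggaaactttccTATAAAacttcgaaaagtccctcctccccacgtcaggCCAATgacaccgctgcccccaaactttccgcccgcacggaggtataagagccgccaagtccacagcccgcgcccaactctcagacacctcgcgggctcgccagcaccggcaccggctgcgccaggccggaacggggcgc
Twist2: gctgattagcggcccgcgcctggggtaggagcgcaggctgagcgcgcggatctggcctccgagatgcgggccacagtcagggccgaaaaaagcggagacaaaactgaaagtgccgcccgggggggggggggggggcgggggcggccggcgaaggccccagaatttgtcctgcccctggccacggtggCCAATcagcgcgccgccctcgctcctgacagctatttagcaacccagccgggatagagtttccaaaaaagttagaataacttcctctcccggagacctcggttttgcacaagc
Vim: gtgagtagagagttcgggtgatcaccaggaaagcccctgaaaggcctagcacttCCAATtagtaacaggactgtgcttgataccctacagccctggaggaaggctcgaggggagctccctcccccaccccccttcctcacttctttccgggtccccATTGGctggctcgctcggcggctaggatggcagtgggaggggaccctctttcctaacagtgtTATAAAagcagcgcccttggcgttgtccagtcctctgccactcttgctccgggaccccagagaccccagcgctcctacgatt

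The E-box was found in the window of Snai1 alone among the 6 genes, as CACCTG beginning 126 bases before the start site. Snai1 protein is known to bind an E-box of its own promoter. Of all 32851 windows, 72.3% held the E-box and 20.2% its narrower form on either strand. CCAAT, on either strand, was in a window of 5 of the 6 genes, against 37.4% of all windows, and Zeb2 had 4 windows in which to find it. The matches began 84 bases before the start site in Snai1, 89 in Twist1, 63 in Twist2 and 196 and 94 in Vim. TATAAA was found in Vim, 32 bases before the start site, and in Twist1, 126 bases before it, against 13.6% of all windows. Among the windows of measured genes, 9.77% held TATAAA. Prrx1 held none of these motifs. A match is a run of letters and shows no binding. The transcript of Snai1, with the E-box, was lower by 3.76-fold. Those of the other genes searched, without one, were lower by 2.36-fold (Vim) to 5.70-fold (Twist2). A link between these motifs and the differences was not tested.

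Other genes of the mesenchymal state were lower, as the 9 genes were, and a link between them was not tested. Of 25 expressed genes that are known to be induced in the transition, 23 were lower by 2-fold or more on the Mof null array and none as much higher, with a median of -1.83 log2 units against 0.10 for all expressed genes. Col1a1, a collagen gene, was lower by 7.57-fold (its other probe set by 1.77 log2 units), S100a4 by 6.33-fold, the mesenchymal cadherin gene Cdh11 by 4.94-fold and the matrix gene Tnc by 4.76-fold. The members under 2-fold were fibronectin, Fn1, at 13.5 and 12.7, and Sparc, at 14.1 and 13.6. This list, of 28 genes before the level filter, shares 15 with the 25 of the fibroblast marker list given below. That is 53.6% of the one and 60.0% of the other. The 10 expressed mesenchymal genes outside the marker list were all lower by 2-fold or more, with a median of -1.65. Fibroblasts are mesenchymal, so a gene outside the marker list is not thereby one that fibroblasts lack.

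Epithelial genes lay on the other side of 0. Of 27 expressed epithelial genes that the transition represses, 11 were higher by 2-fold or more and none as much lower, with a median of 0.82. Of these 11, 3 (Esrp1, Tjp3 and Marveld2) passed the level filter on the Mof null array alone, so their higher value there is partly built into the filter, and of the 23 genes above it on both arrays 8 were higher by 2-fold or more. The claudin genes Cldn6 and Cldn7 were higher by 4.68-fold and 4.48-fold, the splicing regulator gene Esrp1 by 3.56-fold from a value of 4.87, and the tight junction gene Ocln by 3.05-fold. Epcam was higher by 2.81-fold on its brightest probe set, while another differed by -0.05. Cdh1, the E-cadherin gene and classical target of Snail and Zeb proteins, read 10.7 and 11.5, which is 1.83-fold and under the 2-fold rule. Set against Cdh2, the difference of N-cadherin lay 3.29 log2 units below that of E-cadherin. The counts depend on scaling: relative to the median of the stem cell markers, 3 epithelial genes were higher by 2-fold or more and 1 lower by 2-fold or more, and the median was 0.14. Of 10 expressed transcription factor genes that keep the epithelial state, 5 were higher by 2-fold or more and 1, Gata3, lower by 2-fold or more, with a median of 0.99. Tfap2c (2.35-fold), Elf3 (2.29-fold), Grhl3 (2.29-fold) and Hnf4a (2.20-fold) were higher, and Grhl2 read 8.11 and 9.05, a difference of 0.94. Foxa2, higher by 2.06-fold, and Hnf4a are also on the primitive endoderm marker list given further on. Hnf4a passed the level filter on the Mof null array alone and Gata3 on the wild-type array alone, and of the 7 genes above it on both arrays 4 were higher by 2-fold or more and none as much lower. Relative to the stem cell marker median none of these 10 was 2-fold higher.

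The closest relatives of the members went both ways. Of 10 expressed genes of related families, 4 were lower by 2-fold or more, led by the homeodomain and zinc finger gene Zfhx4 (5.08-fold), the helix-loop-helix gene Hand2 (3.54-fold, 0.81 log2 units lower on its other probe set) and Prrx2. Another 2 were higher by 2-fold or more, Tcf15 (2.63-fold), a helix-loop-helix gene also expressed in pluripotent cells, and Tcf23 (2.03-fold, and under 2-fold after centring). Relative to the stem cell marker median neither was 2-fold higher. Tcf23 passed the level filter on the Mof null array alone and Zfhx4 on the wild-type array alone, and of the 8 genes above it on both arrays 3 were lower and 1 higher by 2-fold or more. The list median was -0.33. Of 10 expressed cadherin and catenin genes, 2 were lower by 2-fold or more, Cdh11 and Cdh10 (4.80-fold), and none was 2-fold higher, with a median of -0.40. Cdh10 passed the level filter on the wild-type array alone. After centring 3 were lower by 2-fold or more, and relative to the stem cell marker median 5 were, with a median of -1.08. Cdh3 at -0.99 and Cdh13 at -0.88 were under 2-fold, as were the catenin genes, among them Ctnnb1, at 13.5 on both arrays. Of 15 expressed intermediate filament genes and their partners, 4 were lower by 2-fold or more, including Krt7 (3.60-fold), the linker gene Plec (3.03-fold) and the lamin gene Lmna (2.91-fold), and the median was -0.26, or 0.08 with the level filter at percentile 75. Prph, above the level filter on the Mof null array alone, was higher by 2.51-fold on one probe set and differed by 0.43 on the other, while the keratin genes Krt8 and Krt18, the epithelial counterparts of Vim, differed by 0.08 and -0.35.

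Genes that act with or upstream of the members were divided by role. Twist proteins work as dimers with E proteins, and Id proteins withhold E proteins from them. Among the 3 E protein genes none was past 2-fold, with Tcf3 at 0.58, Tcf4 at -0.36 and Tcf12 at -0.82 log2 units. Of the 4 Id genes, Id3 was lower by 4.07-fold and Id2 by 2.20-fold, while Id4 differed by -0.67 and Id1 by -0.05. The median over the 7 genes was -0.67. Relative to the stem cell marker median, 5 of the 7 were lower by 2-fold or more, Tcf4 and Tcf12 among them, and the median was -1.35. Of 17 expressed genes listed as corepressors of Snail, Zeb and Twist proteins, 1 was past 2-fold, Sin3a, higher by 2.33-fold. The median over that list lay at 0.24. Relative to the stem cell marker median it was -0.44, and 3 were 2-fold lower and none 2-fold higher. The polycomb genes Ezh2 and Suz12 differed by 0.87 and 0.84 and Mta3 by 0.72, and the Zeb partner genes Ctbp1 and Ctbp2 by -0.49 and 0.24. The probe sets of Mta3 ran from -0.35 to 0.72. Of 13 expressed regulators of Snail protein stability, 4 were lower by 2-fold or more, the kinase genes Prkd1 (2.77-fold), Gsk3b (2.02-fold, and 0.01 on another probe set) and Lats1 (2.01-fold) and the ubiquitin ligase gene Mdm2 (2.38-fold). None was 2-fold higher, and the median was -0.31.

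Signals that start the transition lay mostly lower. Of 23 expressed ligand, receptor and mediator genes, 13 were lower by 2-fold or more and none as much higher, with a median of -1.06, or 7 of 22 and -0.68 with all probe sets of each gene averaged. Wnt5a was lower by 7.86-fold, the TGF-beta ligand gene Tgfb3 by 7.02-fold, its receptor gene Tgfbr2 by 6.51-fold and the cytokine gene Il6 by 6.21-fold. Il6 and Tgfb2 passed the level filter on the wild-type array alone. Of 18 expressed genes of other transcription factors of the transition, 10 were lower by 2-fold or more and 1, Foxq1 (3.40-fold), was higher by 2-fold or more. Fosl1 was lower by 5.72-fold, Foxc2 by 5.48-fold, the chromatin protein gene Hmga2 by 4.58-fold and Runx1 by 3.80-fold, the last with probe sets from -2.50 to -0.08. Foxc1 and Foxc2 passed the level filter on the wild-type array alone. The list median was -1.20.

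**Figure D3:**
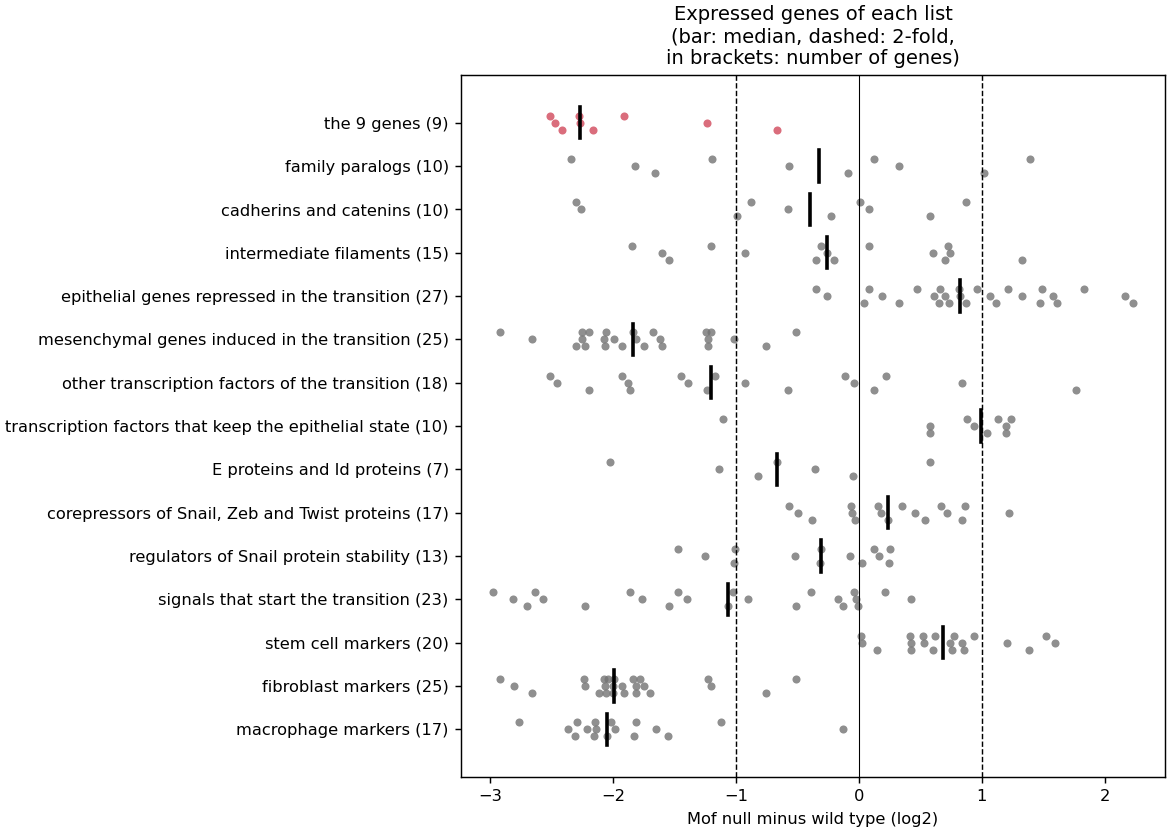
Difference between the arrays (Mof null minus wild type, log2) for each expressed gene of the 9 members, of 11 related gene lists and of 3 marker lists, with a black bar at each median and dashed lines at 2-fold. The members (median -2.27), the mesenchymal genes (-1.83), the fibroblast markers (-1.99) and the macrophage markers (-2.05) lie to the left, and the epithelial genes (0.82) and stem cell markers (0.68) to the right.

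Markers of fibroblasts and macrophages were mostly lower, as the 9 genes were. All 25 fibroblast markers, none of them among the 9 genes, had a lower value on the Mof null array, 23 of them at least 2-fold, with a median of -1.99 (SD over genes 0.54). Their mean level was 12.4 on the wild-type array, over a range of 8.27 to 14.3, and 10.5 on the Mof null array, over a range of 6.52 to 13.6. None was below the level filter on either array. The furthest below 0 beside Col1a1 and S100a4 were Fbln5 (6.98-fold) and Loxl1 (4.72-fold). Of 17 expressed macrophage markers, 16 were lower by 2-fold or more, with a median of -2.05 and a mean level of 9.61 (range 6.64 to 12.8) on the wild-type array and 7.69 (4.81 to 10.7) on the Mof null array. Ptprc was lower by 6.80-fold, Tyrobp by 5.16-fold, Adgre1 by 4.96-fold and Cd53 by 4.91-fold, while Laptm5 differed by -0.13. All 17 were above the level filter on the wild-type array and 14 on the other, and 13 of those 14 were lower by 2-fold or more. The 9 genes all lay within the range of the fibroblast markers, from 0.52 log2 units below their median (Twist2) to 1.32 above it (Zeb1), and 7 of them within 1 SD of it, the others being Vim and Zeb1. In RNA of a whole culture, fewer cells of a type and less RNA per cell cannot be told apart.

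Stem cell markers were present on both arrays. All 20 stem cell markers were above the level filter on both, at 7.67 to 13.8 on the wild-type array and 9.05 to 14.2 on the Mof null array, with 4 higher by 2-fold or more on the latter (Tcl1 at 3.02-fold, Fgf4 at 2.87-fold, Dppa3 at 2.61-fold, Nr5a2 at 2.30-fold) and a median of 0.68. Values of all probe sets ran from 2.77 to 14.6 and from 2.85 to 14.7. Kat8 itself read 8.06 on the wild-type array and 8.37 on the Mof null array, a difference of 0.31. The labels do not state which part of the gene was altered or whether its probe set reads that part. The value therefore does not check them, and each direction above depends on them.

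The differences of the 9 genes kept their sign under other processing. Of 72 values under 8 alternatives, 29 equal the reported one, since a level filter alters no difference and another choice of probe sets can leave a gene with the same one. The other 43 values all lay below 0. The 8 genes past 2-fold were past it wherever they passed the level filter, which at percentile 75 leaves out Snai1, and Zeb1 passed it under 1 alternative, at -1.35 relative to the stem cell marker median. That scaling subtracts 0.68 log2 units from every gene and centring subtracts 0.10. Both lower all values by construction and could not change the sign of these differences.

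**Figure D4:**
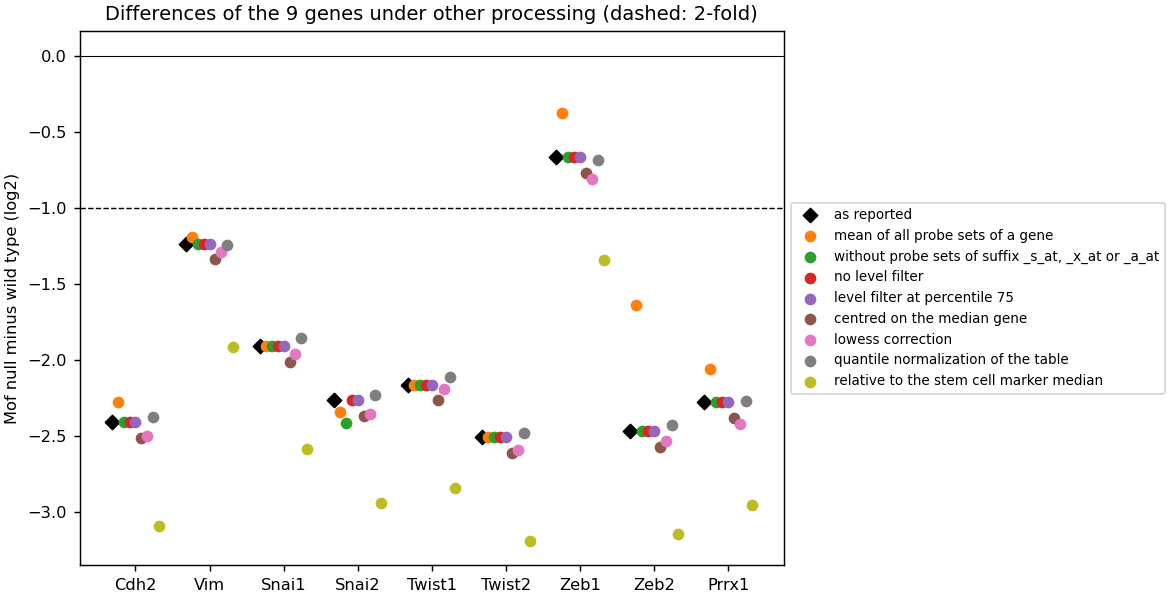
Difference of each of the 9 genes (Mof null minus wild type, log2) as reported (black diamond) and under 8 other processing choices (coloured points), with a dashed line at 2-fold. The points of Zeb1 range from -1.35 to -0.38 and are the ones that cross the dashed line, and those of Zeb2 range from -3.15 to -1.64.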

How the data were processed

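Total RNA of 2 embryonic stem cell lines was hybridised to 1 array each. The deposited table gives a log2 value per array for 45101 probe sets, and the submitters' processing notes name RMA, affy and R 2.10.0. RMA corrects background, quantile-normalizes the arrays and summarises probes per probe set, so a change of most transcripts in 1 direction cannot be seen. The notes do not say whether other arrays were in the same run, and the number of arrays limits the precision.

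Gene names came from the platform annotation (34945 probe sets with 1 gene, 34741 of them matched by Entrez ID to the RefSeq gene table of GRCm38.p6, used for names only). A gene took its probe set with the highest mean, which gave 18193 genes, 12015 of them expressed. Differences are Mof null minus wild type, and genes were counted at a 2-fold rule of size with no test. The named genes are the 9 members, Kat8, fixed relatives and targets (Cdh1, Cdh11, Epcam, Esrp1, Grhl2, Fn1, Snai3, Prrx2, the Id and E protein genes) and up to 4 expressed genes per list with the largest absolute difference. Sparc, Gata3, Foxa2, Tcf23, Foxq1, Ctnnb1, Krt8, Krt18, Ctbp1, Ctbp2, Laptm5, Tjp3, Marveld2, Tgfb2 and Foxc1 were added after their values were seen. The members and the lists were chosen with earlier results of these data known. Some genes of the lists, and the promoters of Cdh2, Snai2, Zeb1 and Cdh1, are not analysed here. The counting was tested on simulated differences for 12015 genes with a noise SD of 0.3. Of 200 genes planted at 2 log2 units, 200 were recovered, and 16 unplanted genes were called. The noise was chosen and not measured on replicate arrays, so these counts give no error rate for the real data. Python 3.11.15, numpy 2.4.6, pandas 2.3.3, statsmodels 0.14.6 and matplotlib 3.10.9 were used.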

Additional observations from a re-analysis of the deposited data

How the results depend on the processing

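With 1 array per genotype, leaving out an array was not possible, and moves were read against the pooled SD of 0.33 between probe sets. Of 72 alternative values for the 9 genes, 29 equal the reported one. Of the other 43, 33 moved by less than that SD, 10 by more and none changed sign. The 10 were the 9 genes relative to the stem cell marker median and Zeb2 with the mean of all probe sets. The count of 8 lower genes was 7 of 8 with the level filter at percentile 75, which leaves out Snai1. It was 9 at 1.5-fold, 9 relative to the stem cell marker median and 6 at 4-fold. The median of the 9 genes was -2.95 relative to the stem cell marker median. Past 2-fold, 1429 expressed genes lay lower and 611 higher. These counts were 926 and 347 with the filter at percentile 75, 3232 and 72 relative to the stem cell marker median, 2303 and 2084 at 1.5-fold and 389 and 35 at 4-fold. The share of higher among called genes was 29.95% as deposited and 2.18% relative to the stem cell marker median, since that scaling lowers every gene by 0.68, and centring lowers every gene by 0.10. Other settings kept these counts within 1.5 times.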

Other observations

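Genes of other lineages did not share one direction. Of 12 expressed primitive endoderm markers, 8 were higher by 2-fold or more on the Mof null array and none as much lower, with a median of 1.11, led by the endocytic receptor genes Amn (8.65-fold) and Cubn (6.34-fold), the laminin gene Lama1 (3.13-fold) and Sox17 (2.69-fold). Of these 8, Hnf4a passed the level filter on the Mof null array alone. Foxa2 and Hnf4a were also counted above among the transcription factor genes that keep the epithelial state. Relative to the stem cell marker median 2 of them were 2-fold higher. Of 8 expressed neural markers, 2 were lower by 2-fold or more, Zic1 (7.72-fold) and Fabp7 (5.72-fold), and 2 were higher by 2-fold or more, Sox1 and Pax6 (each 2.30-fold). Zic1 and Fabp7 passed the level filter on the wild-type array alone and Pax6 on the Mof null array alone, so these differences are partly built into the filter, and of the 4 genes above it on both arrays Sox1 alone was past 2-fold. Relative to the stem cell marker median, none of the 8 was 2-fold higher. Of 6 expressed endothelial markers, Flt1 was lower by 2.31-fold and Esam was higher by 2.09-fold, and under 2-fold after centring, while Tek differed by 0.62 and Kdr by -0.29.

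Markers of the primitive streak and mesoderm, where the transition runs in the embryo, were mostly below the level filter. Of 9 measured, 2 were expressed, Eomes at 7.58 and 8.43 and Hand1 at 6.33 and 6.65, with no difference past 2-fold. Over all 9 measured genes the median difference was 0.35, against 0.11 over all 18193 genes. Snai1, which is switched on in the streak, differed by -1.91 on the same arrays.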
